A study of Mus musculus with 4 samples.

Results

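The cytosolic ribosomal protein genes were followed in mouse 4T1-T cells, a derivative of the 4T1 mammary carcinoma line, in which Asns had been silenced. Members were chosen by symbol alone: large subunit (Rpl) and small subunit (Rps) genes, Rpsa and the stalk genes Rplp0, Rplp1 and Rplp2, with S6 kinase genes and symbols containing "-ps" left out. The rule found 84 of the 23481 genes in the count table, 51 of the large and 33 of the small subunit. Asns encodes asparagine synthetase, which makes asparagine from aspartate. It was silenced in every library, by a method not given in the sources used here, and unsilenced cells were not analysed here. Cells were grown in DMEM, a medium whose standard recipe holds no asparagine, and the groups differed in whether asparagine was present. The 2 libraries grown without it are called Asn-free A and Asn-free B, and the 2 grown with it Asn-supplied A and Asn-supplied B. The labels do not state whether A and B are separate cultures. The spread behind each p-value is therefore only that between these libraries and may be technical.

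A ribosome is built from ribosomal RNA and a set of proteins, most of them needed in 1 copy per ribosome. Many mRNAs for these proteins start with a cytosine followed by a run of pyrimidines, the terminal oligopyrimidine (TOP) tract. The kinase mTORC1, which senses amino acids, controls translation of TOP mRNAs, and the RNA-binding protein LARP1 holds and stabilises them when mTORC1 is inactive. RNA-seq counts measure the amount of mRNA and not its translation. In bulk RNA, a change in the share of cells that express a gene and a change in RNA per cell cannot be told apart.

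Reads assigned to genes numbered 17977552 and 22581543 in Asn-free A and B, and 23867011 and 30260582 in Asn-supplied A and B. Levels are in CPM, read counts normalised to each library's TMM-adjusted size. Asns itself was at 74.99 and 89.2 CPM in Asn-free A and B, and at 103 and 101 CPM in Asn-supplied A and B, which is -0.31 ± 0.12 (SE) on the log2 scale with an adjusted p of 0.235, and -0.19 without Asn-free A. Of the cell type markers, 5 epithelial genes summed to between 761 and 923 CPM in the 4 libraries, 5 leukocyte genes to between 1.18 and 1.60 CPM and 3 endothelial genes to between 0.447 and 0.801 CPM. Cd3e, the 3 red cell genes and Adipoq were at 0 reads throughout, and Plin1 reached at most 0.126 CPM. Asn-free A stood apart from the other libraries. The precursor of ribosomal RNA, Rn45s, made up 3.53% of gene reads there, against 1.66% in Asn-free B and 0.884% and 1.18% in Asn-supplied A and B. HTSeq placed 56.6% of its reads outside annotated features, against 46.3% to 49.3% in the others. A chi-square comparison of A with B over the ribosomal protein genes gave 126 per degree of freedom for the Asn-free pair and 7.56 for the Asn-supplied pair, and over all genes it gave 42.7 and 4.99. Fold changes and medians that moved by over 1.5 times without Asn-free A are therefore given both ways or by library. The part that these features of the library had in the results was not tested.

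Most ribosomal protein mRNAs were more abundant in the libraries grown without asparagine, by small amounts, and no single gene passed the test. Of the 84 genes, 79 had enough reads to test (47 large and 32 small subunit), and 69 of these had a log2 fold change, without over with asparagine, above 0. Their median was 0.32, beside 0.0089 for all 12843 tested genes, of which 6598 were above 0. With edgeR's quasi-likelihood test at a Benjamini-Hochberg adjusted p of 0.05, 0 of the 79 were called, against 1.85% of all tested genes (0.771% as higher without asparagine). At an unadjusted p under 0.05, 35 were higher and 0 lower without asparagine, where 8.65% of all tested genes were higher. Both Asn-free libraries lay above both Asn-supplied libraries for 57 members, against 26.1% of all tested genes, and below both for 3 members (Rpl4, Rpl5 and Rps6), against 26.4%. The DESeq2 Wald test called 5 members, all higher (Rpl35, Rpl37, Rpl37a, Rps12 and Rps24), against 1.5% of all genes called higher. Without the filter on low counts edgeR called 27 of 80 members, all higher, against 3.1% of the 19828 genes then tested. Members share libraries and are not replicates of the condition, so these counts describe the 4 libraries.

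The height of the difference depended on which Asn-free library was read. Measured against the mean of the Asn-supplied libraries, the 79 tested members had a median log2 difference of 0.45 in Asn-free A and 0.18 in Asn-free B. Asn-free A lay above both Asn-supplied libraries for 62 members (44.7% of all tested genes) and below both for 14 (43.1%). Asn-free B lay above both for 68 members (40.1%) and below both for 3 (39.6%). Asn-free B thus had the smaller shift and the more uniform direction, with 75 of 79 members above the Asn-supplied mean against 64 in Asn-free A. Asn-free A exceeded Asn-free B for 60 members and was below it for 19.

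**Figure D1:**
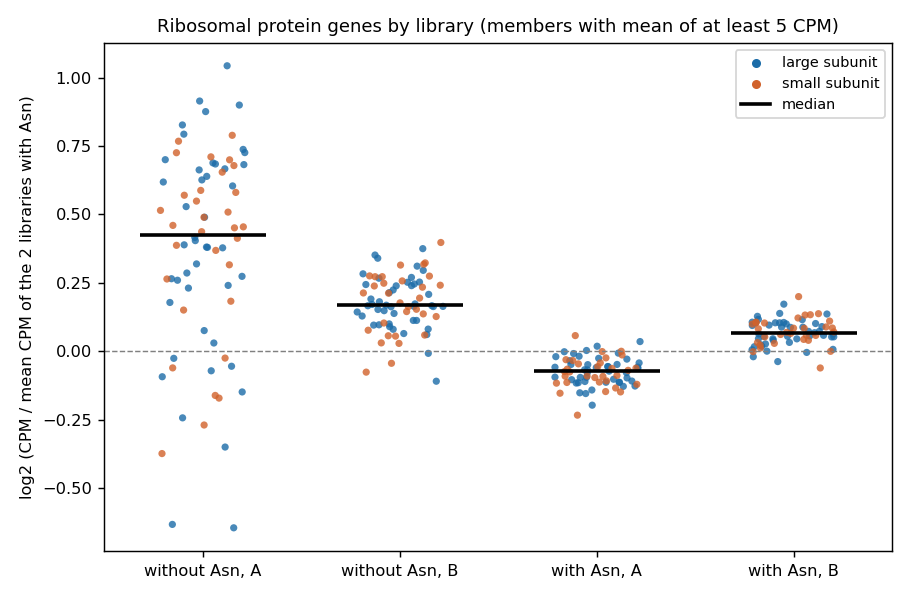
Each point is 1 of the 76 members with a mean of at least 5 CPM in 1 library, on the y axis as the log2 of its CPM over the mean CPM of both libraries with asparagine, coloured by subunit; black bars are medians. Asn-free A spans -0.64 to 1.04 with a median of 0.43, Asn-free B spans -0.11 to 0.40 with a median of 0.17, and the libraries with asparagine have medians of -0.07 and 0.07.

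When Asn-free A was left out, and Asn-free B was assumed to vary like the Asn-supplied libraries, the median member difference was 0.17 and 75 of 79 members were above 0. That fit called 26 members, all higher, against 6.94% of all genes called higher. When Asn-free B was left out instead, the median was 0.45. That fit called 59 members higher, against 18.9% of all genes, and 8 lower, against 21.6%. With Asn-supplied A or B left out, 0 members were called, against 0.438% and 0.363% of all genes, and the medians were 0.24 and 0.38. Members took 1.59% and 1.48% of gene reads in Asn-free A and B and 1.31% and 1.43% in Asn-supplied A and B, so both Asn-free libraries lay above both Asn-supplied ones. Group means were 1.54 ± 0.0750% (SD, n = 2) without and 1.37 ± 0.0785% (SD, n = 2) with asparagine. The exact two-sided permutation test of 2 libraries against 2 cannot give a p below 0.333, so that test can make no call for this share. The exact 95% binomial intervals of these shares cover counting error only; the one of Asn-free A ran from 1.58% to 1.60%.

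Among members with a mean of at least 5 CPM, the largest differences were in small proteins of the large subunit. Rpl35, a protein at the rim of the tunnel through which the new chain leaves (chr2:39001580-39005624, minus strand, GRCm38), was at 91.3 and 56.1 CPM in Asn-free A and B and at 39.9 and 48.7 CPM in Asn-supplied A and B. Asn-free A was far above the others and Asn-free B also lay above both Asn-supplied libraries. On the log2 scale the fold change was 0.73 ± 0.23 (SE) with an adjusted p of 0.174, and it was 0.33 without Asn-free A. Rpl37 (chr15:5116645-5119140), a zinc-binding protein, was at 187 and 132 CPM in the Asn-free and 94.4 and 110 CPM in the Asn-supplied libraries. Its log2 fold change, 0.65 ± 0.18 (SE), had an adjusted p of 0.139 and was 0.37 without Asn-free A. Rpl37a (chr1:72711290-72713813), also zinc-binding, was at 165 and 109 against 80.1 and 94.9 CPM, with a log2 fold change of 0.64 ± 0.20, and 0.31 without Asn-free A. For both genes the groups did not overlap, and most of the distance came from Asn-free A. Rpl36 had 93.9 and 61.2 CPM against 46.4 and 54.2 CPM, and Rpl27 had 78.9 and 54.9 CPM against 42.1 and 49.0 CPM. Their log2 fold changes were 0.62 ± 0.20 and 0.55 ± 0.18, and 0.28 and 0.27 without Asn-free A. Rpl35 shares exon sequence with Arpc5l and Wdr38 on the opposite strand, and the use of strand in counting is not given in the sources used here.

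In the small subunit the smallest p belonged to Rps12. This gene (chr10:23785183-23787275, minus strand), whose protein sits in the beak of the small subunit, was at 88.9 and 73.2 CPM in Asn-free A and B and at 55.6 and 55.5 CPM in Asn-supplied A and B. Each Asn-free library lay well above a pair of almost equal Asn-supplied values. The log2 fold change of Rps12, 0.54 ± 0.12 (SE), had an adjusted p of 0.0946 and was 0.40 without Asn-free A. Rps12 carries 3 snoRNA genes within its bounds, and reads over them may be counted with it. In the large subunit Rpl8 (chr15:76904078-76906314), which lies near the catalytic centre, stood nearly as clear of its spread: 276 and 266 CPM against 198 and 219 CPM, which is 0.38 ± 0.11 on the log2 scale with an adjusted p of 0.145. Both Asn-free values of Rpl8 were close together, and the fold change without Asn-free A was 0.35.

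Rps27 (chr3:90212522-90213651, minus strand), a zinc-binding protein of the small subunit, had the largest log2 fold change of any tested member, 2.10 ± 0.52 (SE), with an adjusted p of 0.115, on few reads. It had 25 and 17 reads in Asn-free A and B and 4 and 9 reads in Asn-supplied A and B. These are 1.36 and 0.760 CPM against 0.168 and 0.300 CPM. Without Asn-free A the log2 fold change was 1.64. Both Asn-supplied counts were under the minimum count of 10. Rps27 thus passed the low-count filter only through the Asn-free libraries, where it was high. Its fold change and p are therefore no evidence of a difference, although Rps27 stays in the counts of tested members given above. Rpl34 and Rpl30, also near the limit of the filter, had log2 fold changes of 0.71 ± 0.33 and 0.44 ± 0.60, and 0.42 and 0.39 without Asn-free A. At these levels 3 reads, the floor used here, correspond to between 0.100 and 0.164 CPM.

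**Figure D2:**
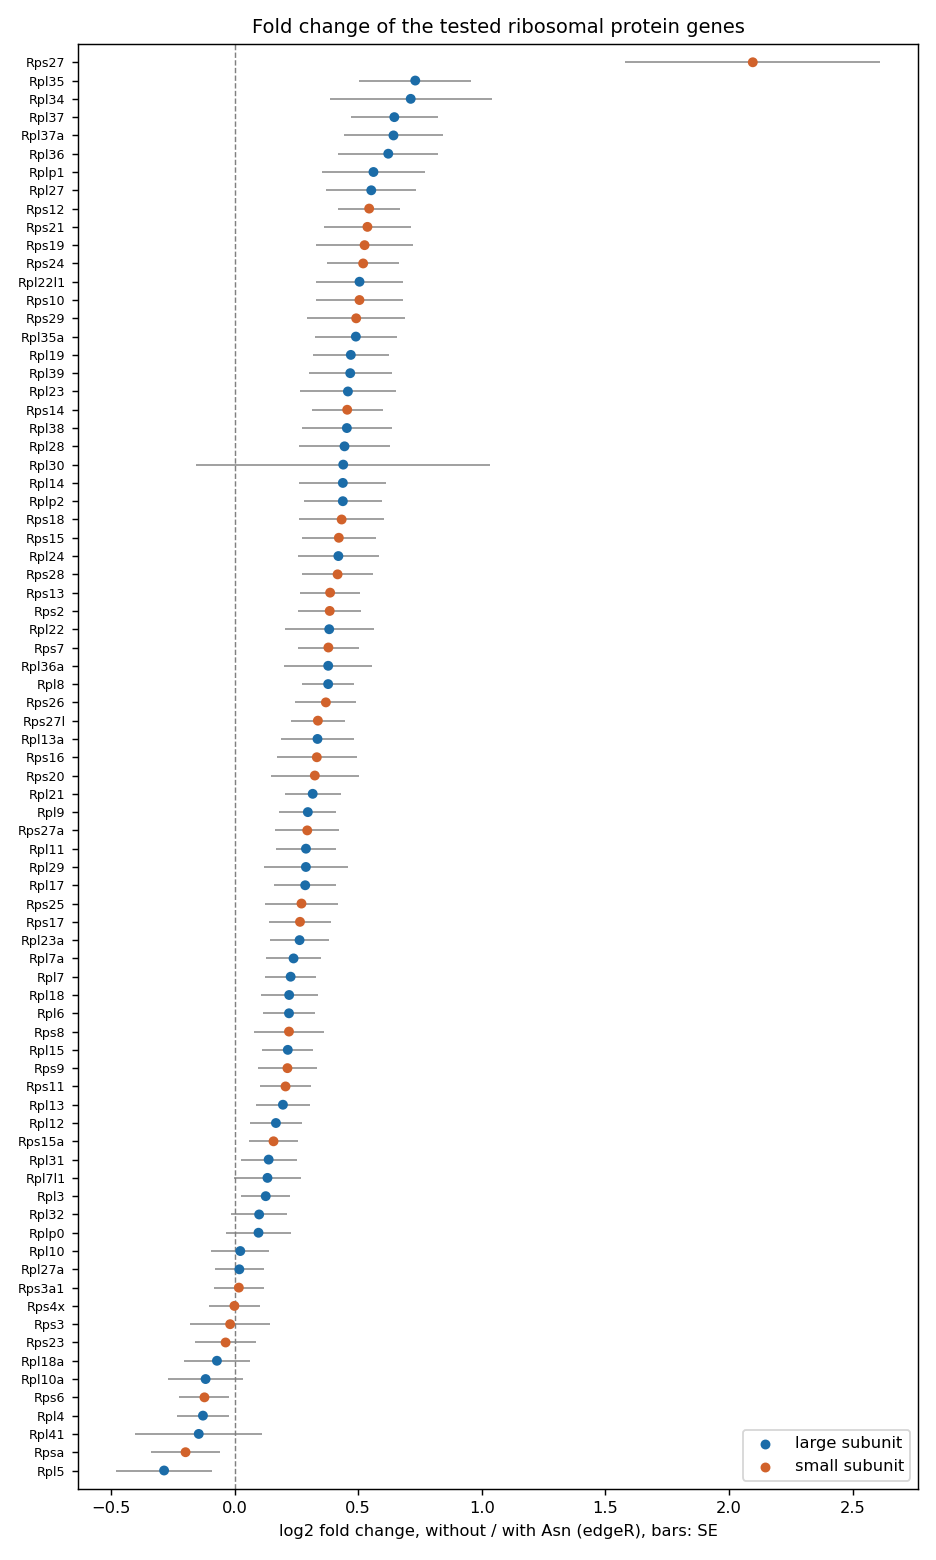
Log2 fold change without over with asparagine for the tested members shown (x axis, 1 of the 79 not drawn), with its SE as a bar, members in order on the y axis and coloured by subunit. Most lie right of 0, between Rpl5 at -0.29 and Rps27 at 2.10, and both subunits are mixed along the order.

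A few members, several of them long or abundant, had log2 fold changes under 0, and none was called. Rpl5 (chr5:107900502-107909005), which binds 5S ribosomal RNA, was at 333 CPM in Asn-free A and at 513 CPM in Asn-free B, against 515 and 516 CPM in the Asn-supplied libraries. Asn-free A alone was low, and the other 3 libraries were almost equal. For Rpl5 the log2 fold change of -0.29 ± 0.19 (SE) had an adjusted p of 0.463 and was -0.0089 without Asn-free A. Rpsa, the laminin receptor homologue of the small subunit, had 398 and 500 CPM without and 484 and 547 CPM with asparagine, so its groups overlapped, and its log2 fold change was -0.20 ± 0.14, or -0.05 without Asn-free A. Rpl41 (chr10:128548114-128549305), which encodes a very short basic peptide, had 439 CPM in Asn-free A and 801 CPM in Asn-free B, on opposite sides of the 634 and 737 CPM in the Asn-supplied libraries. Its log2 fold change was -0.15 ± 0.26 with all libraries and 0.22 without Asn-free A. Rpl4, which lines the exit tunnel, had 1507 and 1549 CPM against 1638 and 1702 CPM, a log2 fold change of -0.13 ± 0.10, and alone took between 9.68% and 12.4% of all member reads. Rps6, the subunit protein phosphorylated by S6 kinase, had 389 and 416 CPM against 434 and 442 CPM, which is -0.12 ± 0.10 on the log2 scale with an adjusted p of 0.549. For Rpl4 and Rps6 both Asn-free libraries were lower than both Asn-supplied ones, by little. The fold changes of Rpl4 and Rps6 were -0.11 and -0.08 without Asn-free A. Rpl10a, in the L1 stalk that guides spent tRNA out, had 224 and 301 CPM against 274 and 295 CPM, with no separation of the groups.

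By place in the ribosome, most groups held genes with both large and near-zero differences, and 0 members of each group were called. The stalk, which recruits translation factors, had 4 of 4 members above 0 with a median log2 fold change of 0.30. Its acidic protein Rplp1 was at 228 and 151 CPM in the Asn-free and 112 and 145 CPM in the Asn-supplied libraries (log2 fold change 0.56 ± 0.21), and its partner Rplp2 was at 121 and 94.9 CPM against 71.6 and 87.7 CPM (0.44 ± 0.16). The stalk base Rplp0 was at 461 and 575 CPM against 478 and 491 CPM (0.10 ± 0.13), with overlapping groups, and Rpl12 was at 101 and 92.6 CPM against 84.9 and 87.8 CPM (0.17 ± 0.10). Without Asn-free A the log2 fold changes of Rplp1, Rplp2 and Rplp0 were 0.23, 0.25 and 0.24, that of Rpl12 was 0.10, and the median of the group was 0.24. Rpl11, which joins Rpl5 and 5S ribosomal RNA in the particle that can bind MDM2 outside the ribosome, had 125 and 110 CPM against 89.4 and 102 CPM (0.29 ± 0.12, and 0.19 without Asn-free A). The partners Rpl5 and Rpl11 were on opposite sides of 0 with all libraries.

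Around the exit tunnel, 7 of 8 listed genes were tested, with a median of 0.29 and 6 above 0. Rpl39, which narrows the tunnel, was at 238 and 172 CPM against 137 and 159 CPM (0.47 ± 0.17). Rpl19 was at 160 and 120 CPM against 96.2 and 106 CPM (0.47 ± 0.15), and Rpl17 at 73.6 and 61.0 CPM against 53.6 and 56.7 CPM (0.29 ± 0.12). Rpl23a, the docking site for chain-binding factors, had a log2 fold change of 0.26 ± 0.12, and Rpl31 of 0.14 ± 0.11. Without Asn-free A these were 0.21 for Rpl39, 0.24 for Rpl19, 0.14 for Rpl17, 0.14 for Rpl23a and 0.09 for Rpl31, and the median of the group was 0.14. Each of Rpl39, Rpl19, Rpl17 and Rpl23a had both Asn-free libraries above both Asn-supplied ones. Near the peptidyl transferase centre and in the L1 stalk the median over 4 genes was 0.07: Rpl8 as given, Rpl3 at 0.13 ± 0.10, Rpl10 at 0.02 ± 0.12 and Rpl10a at -0.12 ± 0.15. With Asn-free A left out the median was 0.15, with Rpl3 at 0.17, Rpl10 at 0.13 and Rpl10a at 0.08.

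On the small subunit, 8 proteins of the mRNA channel and decoding site had a median log2 fold change of 0.38, with 6 above 0. Rps14 was at 64.2 and 53.7 CPM in the Asn-free and 38.6 and 47.2 CPM in the Asn-supplied libraries (0.46 ± 0.14). Rps15 was at 296 and 232 CPM against 181 and 213 CPM (0.42 ± 0.15), and Rps26, which contacts mRNA at the exit of the channel, at 205 and 180 CPM against 138 and 160 CPM (0.37 ± 0.12). Rps28 and Rps2 had log2 fold changes of 0.42 ± 0.14 and 0.38 ± 0.13. Rps3, at the channel entry, had 398 and 549 CPM against 456 and 503 CPM (-0.02 ± 0.16), and Rps23, at the decoding site, had 121 and 142 CPM against 127 and 143 CPM (-0.04 ± 0.12). In these last genes Asn-free A was the lowest library and Asn-free B lay among or above the Asn-supplied values. Without Asn-free A the median of the group was 0.25, with Rps14 at 0.32, Rps15 at 0.23, Rps26, Rps28 and Rps2 each at 0.27, Rps3 at 0.19 and Rps23 at 0.07. Rps27a, made as a fusion with ubiquitin, was at 89.8 and 72.9 CPM against 63.8 and 68.8 CPM (0.29 ± 0.13, and 0.13 without Asn-free A).

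The large and small subunit did not differ much as lists, with medians of 0.30 over 47 and 0.33 over 32 tested genes, and 0.16 and 0.20 without Asn-free A. Of 17 genes whose human counterparts are mutated in Diamond-Blackfan anaemia, a failure of red cell production, 16 were tested. Their median was 0.40 (0.24 without Asn-free A) and 15 were above 0, Rpl5 being the exception.

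Per transcript length, the members differed widely in level although most ribosomal proteins are needed in about the same number. Levels here are mean CPM per kilobase over the 4 libraries, with lengths from GENCODE M21. They depend on the transcript chosen for each gene. Rps20, with 119 codons, was given 3706 bases, so its mean of 205 CPM became 55.2 CPM per kilobase. Rpl41 was highest at 1494, followed by Rpl4 at 1039, Rpl22 at 686, Rpl32 at 591 and Rpl14 at 525 CPM per kilobase. The median of the tested members was 168, and the 10th and 90th percentiles were 42.6 and 401, a ratio of 9.41. Rpl22, a ribosomal RNA-binding protein, was at 436 and 301 CPM in Asn-free A and B and at 265 and 300 CPM in Asn-supplied A and B. Rpl14 was at 713 and 507 CPM against 412 and 488 CPM (0.44 ± 0.18). Rpl32 was at 301 and 331 CPM against 277 and 314 CPM (0.10 ± 0.11). Without Asn-free A the log2 fold changes were 0.09 for Rpl22, 0.17 for Rpl14 and 0.16 for Rpl32.

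**Figure D3:**
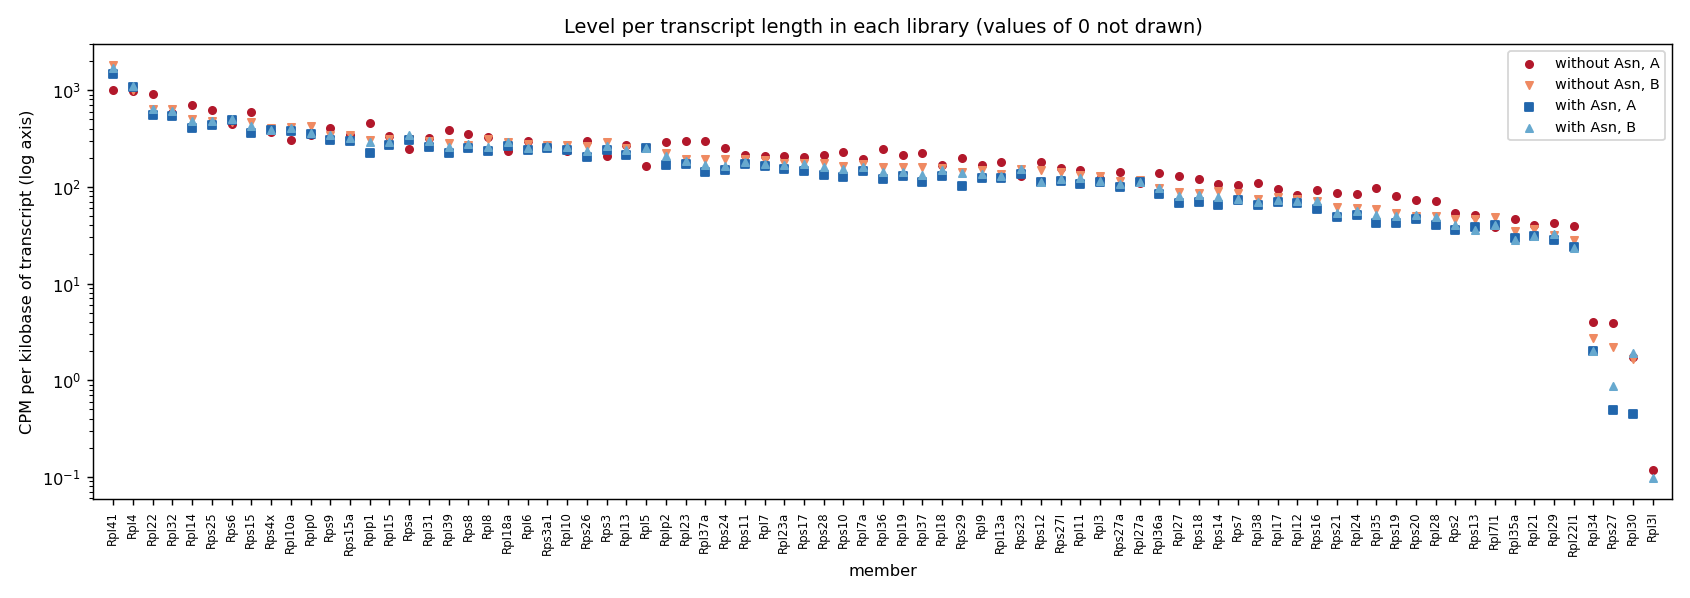
CPM per kilobase of transcript on a log axis for members with reads (x axis, in order of mean level, 1 not drawn), with 1 marker per library; values of 0 are not drawn. Members from Rpl41 at 1494 to Rpl22l1 at 28.5 form 1 slope, and Rpl34, Rps27 and Rpl30 lie far under it at 2.68, 1.88 and 1.44 CPM per kilobase. Rpl3l, which was not tested, is lowest with a mean of 0.054, and has markers for Asn-free A and Asn-supplied B only.

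Of the tested members, only Rpl34, Rps27 and Rpl30 lay far under the rest, and Rpl22l1, the next lowest, was at 28.5 CPM per kilobase. Rpl26, Rpl10l, Rpl39l and Rps4y2 had 0 reads in every library, and Rpl3l had 3, 0, 0 and 4 reads in Asn-free A and B and Asn-supplied A and B. Rpl26 encodes a core protein of the large subunit, and Rps27 has a related gene, Rps27l, whose reads are given below. How reads shared by near-identical gene copies were counted is not given in the sources used here, so the levels of such genes are uncertain. Copies named "-ps" differed in how many reads they held. Rpl34-ps1 and Rplp2-ps1 were at 0 reads in every library. Rpl31-ps12 held 55.4% of the reads of itself and Rpl31 together, Rps19-ps3 29.2% of the pair with Rps19, and Rps15a-ps6 and Rps15a-ps4 28.4% and 18.3% of the 3 genes with Rps15a. Summing copies with their parents gave log2 fold changes of 0.16 for Rpl31, 0.23 for Rps15a and 0.50 for Rps19, against 0.14, 0.16 and 0.53 apart. The parents alone had 0.09, 0.16 and 0.21 without Asn-free A.

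Several members have a paralog, a related gene that can take the place of the usual protein. Rpl22l1 took 4.70% and 4.90% of the reads of the pair with Rpl22 in Asn-free A and B, and 4.74% and 4.09% in Asn-supplied A and B. The exact 95% interval for Asn-free A ran from 4.25% to 5.17%, and the groups overlapped (exact two-sided permutation p = 0.667, the smallest possible being 0.333). Rpl22l1 itself was at 21.5 and 15.5 CPM against 13.2 and 12.8 CPM (0.51 ± 0.18), and Rpl22 had a log2 fold change of 0.38 ± 0.18. Without Asn-free A these were 0.25 and 0.09. Rps27l was at 78.9 and 70.8 CPM against 58.0 and 60.4 CPM (0.34 ± 0.11). It took 98.3% and 98.9% of the reads of the pair with Rps27 without asparagine and 99.7% and 99.5% with it (exact two-sided permutation p = 0.333). Rps27 had only 25 and 17 reads without and 4 and 9 reads with asparagine. Like the fold change of Rps27, these shares are therefore no evidence of a difference. Rpl36al, a paralog outside the naming rule, took 77.5%, 83.7%, 84.2% and 83.6% of the pair with Rpl36a in the same order of libraries. Only Asn-free A stood apart in that pair. Rpl39l and Rpl10l were at 0 reads, under the floor of 3 reads, which is 0.164 CPM in Asn-free A. Because the counting of shared reads is not given, these zeros do not bound the true level of either gene.

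Short coding sequences went with larger differences. Among tested members under 150 codons, 35 of 37 were above 0 with a median log2 fold change of 0.44. From 150 to under 200 codons the median of 19 members was 0.29, and with 200 or more codons the median of 23 members was 0.13, with 16 above 0. In Asn-free A alone the medians of these classes against the Asn-supplied mean were 0.69, 0.42 and 0.08, and in Asn-free B alone 0.25, 0.18 and 0.15. Both libraries therefore had the same order of classes, with a much steeper slope in Asn-free A. Across the 79 members, Spearman's rho between codons and log2 fold change was -0.61, and -0.42 in Asn-free B alone. Members share libraries and composition, so rho is a description. The difference between Asn-free A and B also ran with coding length across members (rho -0.58), and the difference between the Asn-supplied libraries ran the other way (0.40). Length thus also separated libraries of the same group. Other tested genes under 150 codons, 728 in number, had a median of 0.13, with 486 above 0. Against the Asn-supplied mean, their medians were 0.20 in Asn-free A alone and 0.06 in Asn-free B alone. Other tested genes with 200 or more codons, 9939 in number, had a median of -0.01, and -0.02 and -0.01 in Asn-free A and B alone. Level ran with the difference too: across members, rho between mean log2 CPM and log2 fold change was -0.63, and -0.51 in Asn-free B alone.

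**Figure D4:**
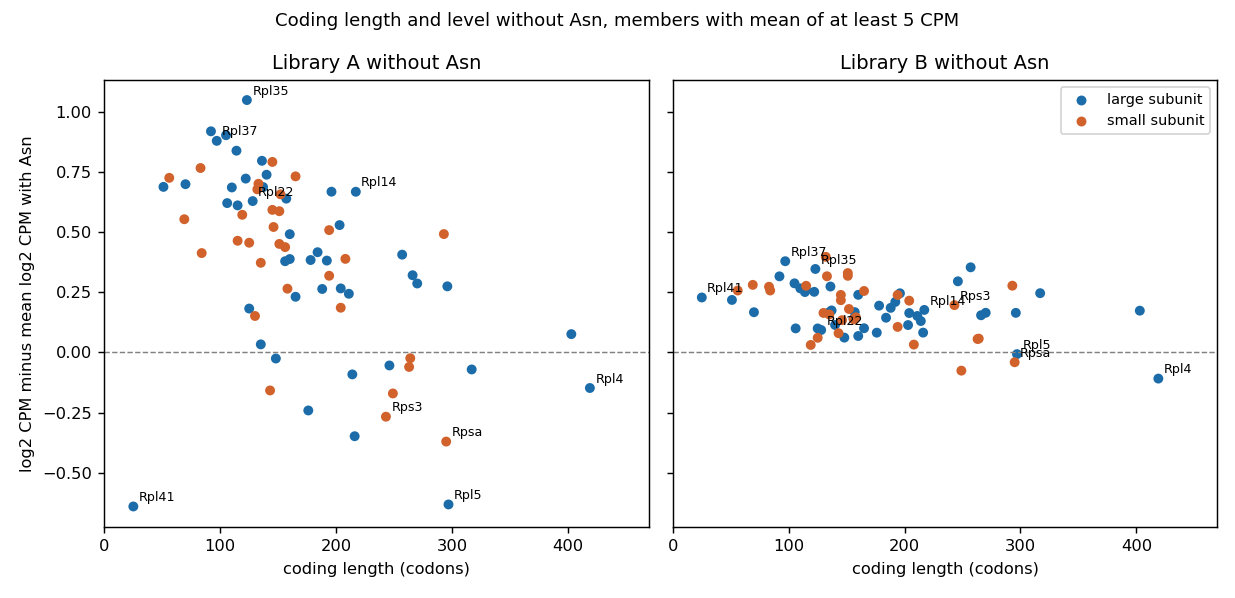
Coding length in codons (x axis) against log2 CPM minus the mean log2 CPM with asparagine (y axis) for the 76 members with a mean of at least 5 CPM, in Asn-free A (left) and Asn-free B (right), coloured by subunit. Short members sit higher in both panels, with a spread in Asn-free A that reaches 1.05 for Rpl35 and a much narrower one in Asn-free B; Rpl41 departs from the slope in Asn-free A.

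The asparagine content of the encoded proteins was set beside the difference. The median share of asparagine codons was 3.50% in the tested members and 3.38% over all tested genes with a length. Among members it ranged from 0 in Rpl41 to 8.15% in Rpl32, and rho with log2 fold change was -0.15, and -0.25 in Asn-free B alone. Ribosomal proteins bind RNA and are rich in lysine and arginine: these codons made up a median of 21.6%, against 11.5% over all tested genes. For these codons rho with log2 fold change was 0.09, and -0.08 in Asn-free B alone. Introns of many ribosomal protein genes hold snoRNAs, which guide modification of ribosomal RNA. The 30 tested host genes had a median log2 fold change of 0.23 and the 49 tested other members 0.38. In Asn-free B alone, against the Asn-supplied mean, the medians were 0.15 and 0.22. Host genes were also longer, with a median of 170.5 codons against 143, and the part of length in this contrast was not tested.

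The sequence at the annotated start was read for the 63 members with an entry among RefSeq promoters (GRCm38.p6), each entry spanning 250 bases before to 50 after the start. A C followed by pyrimidines to a run of at least 7, beginning within 10 bases of the start on the gene's strand, was found in 30 of 63 members (47.6%) and in 13.2% of the 27025 genes in the table. A C preceded by T was also accepted, and the run was then counted and capitalised from that C, as in Rpl22l1, Rplp2 and Rps26. The windows printed here, 5′ to 3′ on the gene's strand with the tract in capitals, were chosen to show tracts in members at both ends of the fold changes and in the paralog pairs. Rpl35 (chr2:39005117-39005146, minus), Rps12 (chr10:23787180-23787209, minus), Rpl39 (chrX:37085195-37085224, minus) and Rpl14 (chr9:120571501-120571530, plus) were higher without asparagine. Rps6 (chr4:86857347-86857376, minus) was not. Rps27 (chr3:90213629-90213658, minus) was the member with few reads, and Rpl22l1 (chr3:28805503-28805532, plus) a paralog. Rplp2 (chr7:141447639-141447668, plus) is a stalk gene and Rps26 (chr10:128626481-128626510, minus) one of the mRNA channel.
Rpl35: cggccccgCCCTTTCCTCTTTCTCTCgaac
Rps12: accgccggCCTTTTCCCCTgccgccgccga
Rpl39: tctagcgaCTTCTTCTaatcgcgttcttcc
Rpl14: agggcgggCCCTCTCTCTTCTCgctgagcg
Rps6: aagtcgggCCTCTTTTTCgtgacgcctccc
Rps27: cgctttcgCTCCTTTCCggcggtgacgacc
Rpl22l1: agcccgttCTCTTCCCacggctgcagctca
Rplp2: gtcagcgtCTTCCTTTCgccgccggacgcc
Rps26: cgccggatCCTCTTTCgagtcttggctcca

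The tract of Rps6 is 10 bases long and begins at -1 from the annotated start. That of Rps12 is 11 bases long and begins at 8. Their log2 fold changes were -0.12 and 0.54, and the part that a tract had in the differences was not tested. The 29 tested members with a tract had a median of 0.44 and the 30 matched tested members without one 0.28, and without Asn-free A the medians were 0.21 and 0.16. CCGGAAG, read on both strands as a core of the site bound by ETS factors such as GABP, was in the 300 bases of 26 of 63 members (41.3%) and of 9.93% of all entries. Read on the other strand it is CTTCCGG, whose first letters can be part of a pyrimidine tract. Medians with and without CCGGAAG were 0.37 and 0.34, and 0.22 and 0.16 when Asn-free A was left out. A match describes letters in these windows and does not show a bound factor or a transcribed start.

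Genes that work with the ribosomal proteins were taken from lists by role, and 0 were called in each list. Over 4 further ribosome genes with other names the median was 0.21 (0.13 without Asn-free A), and Fau, a small subunit protein made as a fusion with a ubiquitin-like protein, had a log2 fold change of 0.27 ± 0.15, and 0.06 without Asn-free A. Of 18 other TOP mRNAs, mainly elongation and initiation factors, 13 were above 0 with a median of 0.11 (0.14 without Asn-free A). Hnrnpa1, a splicing factor, had 0.49 ± 0.15 and Naca, a chain-binding factor at the tunnel exit, 0.45 ± 0.16, and without Asn-free A they had 0.36 and 0.19. Among 11 regulators of TOP mRNAs the median was -0.02, and 0.08 without Asn-free A. Mtor, the kinase of mTORC1, was at 97.6 and 109 CPM without and 142 and 143 CPM with asparagine (-0.46 ± 0.11, adjusted p = 0.0941), with groups well apart. Rps6kb2, an S6 kinase, had a log2 fold change of 0.51 ± 0.18, and 0.31 without Asn-free A. Myc, chosen after its values were seen, is a transcription factor known to activate ribosome genes, and was at 719 and 657 CPM against 485 and 520 CPM (0.45 ± 0.11, adjusted p = 0.107).

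The ribosome biogenesis list, whose products mostly make or process ribosomal RNA, had 24 of 26 genes above 0 and a median of 0.27. For 22 of its genes both Asn-free libraries lay above both Asn-supplied ones, against 26.1% of all tested genes. Its median without Asn-free A was 0.26, where the ribosomal proteins had 0.32 with and 0.17 without that library. Rrp12, an export factor of ribosomal subunits, was at 55.4 and 43.8 CPM against 31.4 and 31.4 CPM (0.66 ± 0.14, adjusted p = 0.0746). Bop1, of the complex that matures large subunit RNA, was at 45.0 and 47.9 CPM against 31.9 and 33.8 CPM (0.50 ± 0.11, adjusted p = 0.0815). Among 8 chaperones and assembly factors, 7 were above 0 with a median of 0.19. Rrs1, which brings Rpl5 and Rpl11 to the assembling subunit, was at 156 and 137 CPM against 103 and 104 CPM (0.50 ± 0.11, adjusted p = 0.0855), and Grwd1, a chaperone of Rpl3, had 0.37 ± 0.15. The 76 mitochondrial ribosomal protein genes, which serve the separate ribosome of mitochondria, had a median of 0.17 (0.13 without Asn-free A) with 65 above 0. Mrps18b had 0.62 ± 0.13 (adjusted p = 0.0746) and Mrps28 0.50 ± 0.21, and without Asn-free A they had 0.53 and 0.20.

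**Figure D5:**
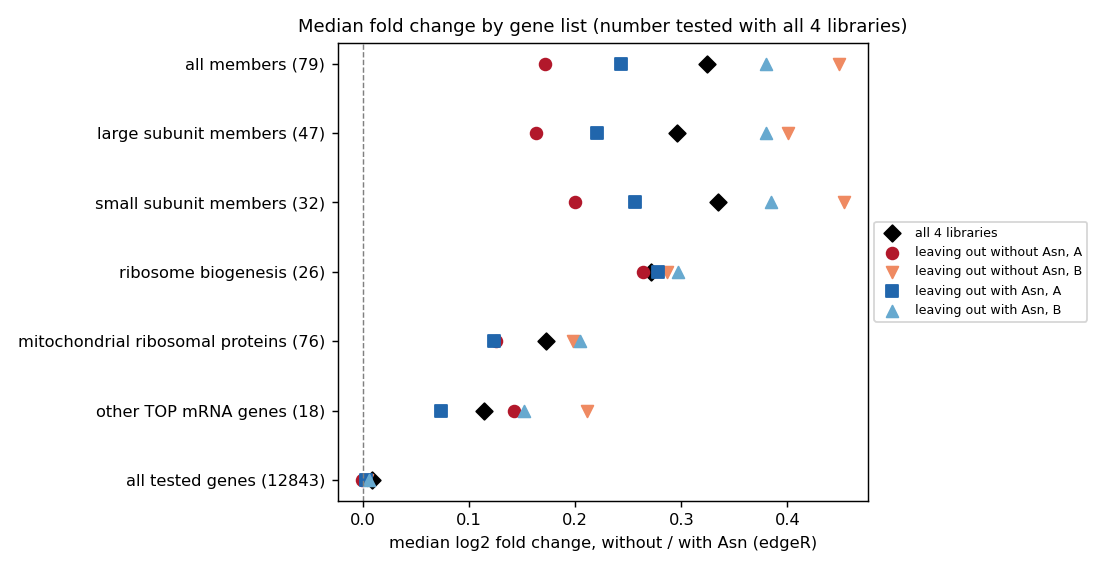
Median log2 fold change without over with asparagine (x axis) for the ribosomal proteins, both subunits, 3 related lists and all tested genes (y axis, number tested in brackets), with all 4 libraries and with each library left out. The cytosolic ribosomal proteins range from 0.17 to 0.45 with single libraries left out, the biogenesis list stays between 0.26 and 0.30, and all tested genes stay near 0.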

How the data were processed

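RNA from 4 libraries, 2 per group, was purified with a Qiagen kit and amplified with NuGEN Ovation RNA-Seq V2, per the labels' protocols. The authors deposited 1 table of raw read counts with a row per gene symbol. Bowtie2, HTSeq and the build mm10 are named in the submitters' processing notes. For the annotation, strand use, versions and reads shared by gene copies, the choice is not given in the sources used here. All 5 HTSeq summary rows were left out of library sizes and tests.

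Genes passing filterByExpr (minimum count 10, minimum total 15) were tested after TMM scaling with edgeR 4.0.16 (R 4.3.3, quasi-likelihood F test, 2 groups, no block, two-sided, Benjamini-Hochberg adjustment over all tested genes, threshold 0.05). The common biological coefficient of variation was 11.2%. Fold changes are without over with asparagine. The SE is the absolute fold change over the square root of F. Log2 CPM used a prior count of 2. The pipeline was tested on simulated data. Transcript lengths, codons, snoRNA genes and overlaps came from GENCODE M21 (GRCm38, the build of mm10), using for each gene the shortest basic protein-coding transcript with the principal coding length. This matched 83 of 84 members, all but Rps4y2.

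The members, the lists and the tests were chosen with earlier results of these data known. Members named were the 6 with the largest and 6 with the smallest fold change at a mean of at least 5 CPM, the 4 with the smallest p, the 5 highest per length, paralog pairs and role groups. From each related list, the 2 with the largest change were named. Other members named were chosen after their values were seen. Some genes that met these rules are not reported here, though they stay in counts and medians. Alternatives were DESeq2 1.42.0 (its test and its size factors), no filter, the letter as a replicate block, each library left out, the 10 most abundant genes left out and, added after seeing the data, "-ps" copies summed with their parents.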

Additional observations from a re-analysis of the deposited data

How the results depend on the processing

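The median log2 fold change of the ribosomal proteins kept its sign under every alternative run, from 0.17 to 0.45 with single libraries left out and from 0.31 to 0.32 under the others. The count of members called did not hold. It was 0 with edgeR and all libraries, 5 with the DESeq2 Wald test, 27 without the low-count filter, 8 with the letter as a replicate block, and 0 to 67 with single libraries left out. For all genes the count was 237, and then 464, 1334, 816 and 48 to 5363 in the same order. Of all tested genes, 1.85% were called with edgeR and all libraries, 3.61% with DESeq2, 6.73% without the filter and 6.35% with the block. With the block 344 of 12843 genes were called higher, and the 8 members were all higher. Rps27, on few reads, was among the 8 and among the 27. Of the single libraries, leaving out either Asn-supplied library gave the low counts, and leaving out Asn-free B the highest. In each of those fits the library that stayed alone in a group was assumed to vary as the libraries of the opposite group do. The letters were not taken as pairs: the labels do not say that they mark a shared culture, and the correlation of deviations of libraries A was 0.123 over all tested genes and -0.149 over members. DESeq2 size factors, leaving out the 10 most abundant genes and summing "-ps" copies left 0 members called. Log2 fold changes that changed sign with a library left out ran from -0.10 to 0.13 for Rpl10, -0.35 to 0.079 for Rpl10a, -0.65 to 0.22 for Rpl41, -0.074 to 0.24 for Rplp0, -0.17 to 0.074 for Rps23 and -0.27 to 0.19 for Rps3. The cause of these shifts was not tested. The members' share of gene reads differed by 0.166 percentage points, by 0.111 to 0.222 with single libraries left out, by 0.193 without Rn45s and by 0.213 without the 10 most abundant genes. Depth limits Rps27, Rpl30 and Rpl34, with few reads per library.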
